A study of Arabidopsis thaliana with 8 samples.

Results

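The DIVARICATA-type MYB factors of Arabidopsis thaliana examined here are 10 genes named by locus identifier: DIV1 (AT5G58900), AT2G38090, AT5G05790, AT3G11280, AT5G04760, AT5G08520, AT1G49010, KUA1 (AT5G47390), AT3G16350 and AT1G70000. The list of 10 was drawn up with earlier results of these data known. Rows for them in the authors' comparison were then taken by identifier, irrespective of value. Of the 2958 genes in that comparison 5 were members, and the other 5 members had no row, which means not listed and not that they were unchanged. The series used TARGET, a transient assay in which leaf protoplasts (cells freed of their walls by enzyme) take up a plasmid encoding the factor of interest before their RNA is sequenced. Here poly(A) RNA came from protoplasts of Col-0 rosette leaves of 4-week-old plants, transfected with polyethylene glycol and kept overnight, in 4 libraries titled div1 and 4 titled ev. Both groups share genotype, tissue and transfection. The labels expand neither title and give neither the promoter of the plasmid nor whether replicates were separate preparations, so the errors below measure the spread between these libraries, which may be technical.

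DIVARICATA was first known from snapdragon, where it shapes the lower petals and is held in check by RADIALIS, a small protein with a single MYB-type repeat. Its relatives carry a MYB-type repeat of the class named after its letters SHAQKYF, which contacts DNA, and the rice factors of this class called MYBS bind the TATCCA box of alpha-amylase promoters in sugar response. KUA1, also called MYBH, is a circadian-regulated factor that controls cell expansion in growing leaves, through peroxidase genes and reactive oxygen, and hypocotyl elongation. The annotation used here gives the other members no functional name beyond the MYB and homeodomain-like classes, and pairs AT5G58900 with no name either; that it is DIV1 is background knowledge. Its direction below is taken from this identity and is no check of it.

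What the 10 members share is shown by the coding bases that end their SHAQKY motif. Each line gives 60 coding bases, 5′ to 3′ on the coding strand, from the RefSeq TAIR10.1 genome, and the 21 bases in capitals encode the 7 residues of the motif.
DIV1 (AT5G58900): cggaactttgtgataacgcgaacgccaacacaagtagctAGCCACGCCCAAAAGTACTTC
AT5G04760: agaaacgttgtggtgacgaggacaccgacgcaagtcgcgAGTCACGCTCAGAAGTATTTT
AT2G38090: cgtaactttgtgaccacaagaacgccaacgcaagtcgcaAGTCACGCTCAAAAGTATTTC
AT5G05790: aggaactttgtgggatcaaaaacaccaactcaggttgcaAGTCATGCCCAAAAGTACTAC
AT3G11280: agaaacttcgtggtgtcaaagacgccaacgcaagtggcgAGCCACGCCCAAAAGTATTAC
AT1G49010: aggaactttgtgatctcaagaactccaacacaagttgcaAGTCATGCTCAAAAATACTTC
AT5G08520: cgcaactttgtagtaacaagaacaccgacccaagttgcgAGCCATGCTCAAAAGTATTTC
KUA1 (AT5G47390): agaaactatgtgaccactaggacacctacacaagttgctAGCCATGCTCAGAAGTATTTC
AT3G16350: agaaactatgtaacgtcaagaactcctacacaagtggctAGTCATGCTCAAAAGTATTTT
AT1G70000: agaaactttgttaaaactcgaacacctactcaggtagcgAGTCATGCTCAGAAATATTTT
The stretch lies without interruption in exon 2 of every member; in DIV1 it is chr5:23783581-23783640 on the minus strand, and in KUA1 chr5:19227528-19227587 on the plus strand. Over the 60 bases the other members differed from DIV1 at 11 positions (AT2G38090) to 17 positions (AT5G04760, AT3G16350 and AT1G70000). The last residue of the motif is phenylalanine in 8 members and tyrosine in AT5G05790 and AT3G11280.

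Proteins of the members were less alike over their whole length than in the stretch that ends with the motif. In the 50 residues that end with the motif, DIV1 was identical to the other members at 82% to 92% of positions, whereas over the whole protein the identity was 28.1% to 55.9% of the shorter protein (global alignment). Over all 45 pairs of members the ranges were 70% to 96% and 27.1% to 75.3%. The whole protein includes the 50 residues, and the part outside them was not measured alone. The closest member to DIV1 was AT2G38090, at 55.9%, and the closest pair of all was AT5G05790 with AT3G11280, at 75.3%. KUA1 was closest to AT3G16350, at 49.9%, and these 2 with AT1G70000 carry near their start, from residue 5, the spacing of cysteines and histidine of a CCHC zinc knuckle, which none of the other 7 members has.

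**Figure D1:**
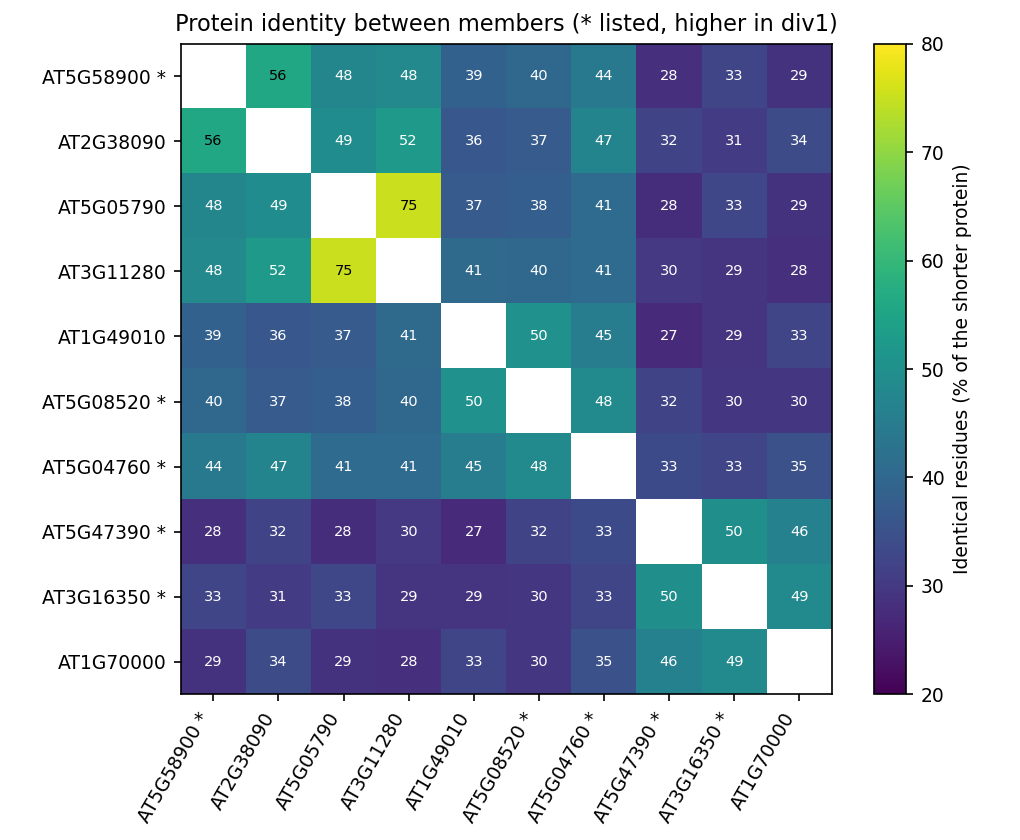
Protein identity between each pair of the 10 members, as identical residues in percent of the shorter protein (colour and figure in each cell). Asterisks mark the 5 members listed as higher in the div1 libraries; the highest cell is AT5G05790 with AT3G11280 at 75.3%, and the listed pair KUA1 (AT5G47390) and AT3G16350 stands at 49.9%.

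The 5 listed members were all higher in the div1 libraries: DIV1 itself, AT3G16350, KUA1, AT5G04760 and AT5G08520. None was lower, and AT2G38090, AT5G05790, AT3G11280, AT1G49010 and AT1G70000 were not listed. A call means an adjusted p under 0.05 in the authors' comparison of the 2 groups. The deposited p-values imply that 18010 genes were tested, of which 16.4% were called, 9.14% as higher and 7.28% as lower. Against this background the members had 5 of 10 higher, or 4 of 9 without DIV1, which the experiment introduced. The members were chosen with earlier results of these data known, so these shares describe the list and are no test of the family. Of the 14 other genes whose protein holds the SHAQKY motif, 1 was higher and 1 lower. Calls at least 2-fold higher made up 3.47% of tested genes, and DIV1, KUA1 and AT3G16350 were among them. The median size of the log2 fold change was 1.86 among the listed members, 1.25 without DIV1 and 0.78 over all listed genes, but members reached the table only by being called. The table gives no values per library, so neither the depth of a library nor the overlap of the groups could be read, and errors are the authors' standard errors (SE) from 4 libraries against 4. The smallest test statistic listed was 2.644 in size, so a member that was tested and left out had a fold change smaller than that many standard errors.

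**Figure D2:**
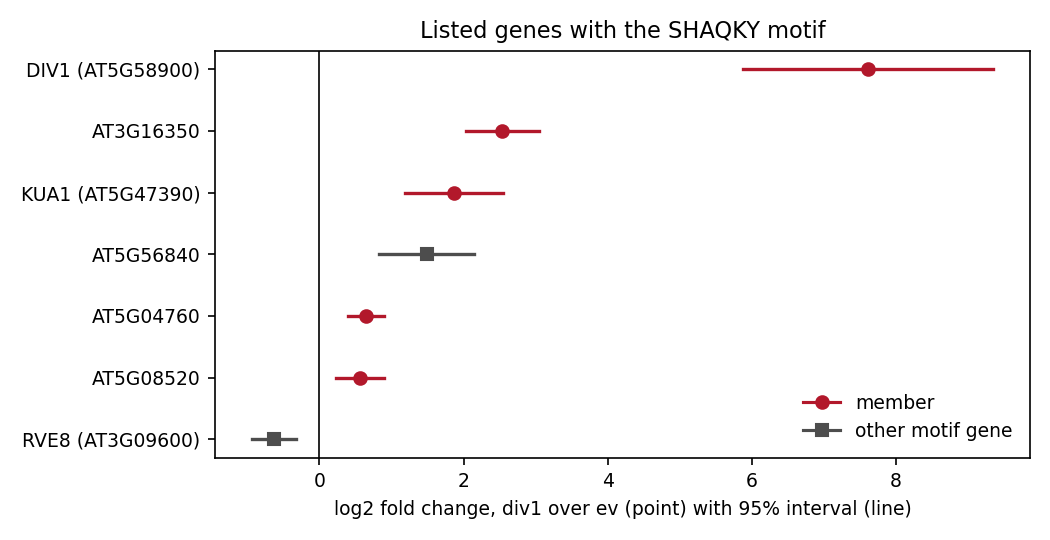
Log2 fold change of div1 over ev (points) with its 95% interval (lines) for the 7 listed genes whose protein holds the SHAQKY motif. The 5 members (red circles) and AT5G56840 lie to the right of 0, RVE8 lies to the left, and the interval of DIV1, from 5.88 to 9.34, is the widest.

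DIV1, the factor introduced, stood far above all relatives. DIV1 (AT5G58900; 2 exons and 288 residues; chromosome 5, from 23783102 to 23785512 on the minus strand of TAIR10.1) had in the authors' deposited table a mean normalized count of 45281 over all libraries and a log2 fold change of 7.61 with an SE of 0.88 (adjusted p = 1.12e-15). The sign of this value gives the direction of all others, since the header names no numerator. As a linear fold the change was 195, with a 95% interval of 58.8 to 649. With equal group sizes the mean and the fold imply 461 normalized counts in the ev libraries and 90100 in the div1 libraries. With the overall mean held fixed, the interval of the fold moves the ev estimate between 139 and 1514; the error of the mean itself, and so of the div1 estimate, cannot be read from the table. Reads of an introduced copy and of the chromosomal gene carry 1 identifier and cannot be told apart.

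DIV1 also had a larger standard error than other listed genes of its abundance. Among the 56 other listed genes with a mean within 1.5 times that of DIV1, the standard error had a median of 0.155 and a maximum of 0.264, against 0.88 for DIV1. Once counting error is taken off, that standard error implies a spread between libraries of about 86.6% of the mean, where the median of those 56 genes is 15.2%. Both values assume the same relative spread in ev and div1, and the spread within either group could not be read. DIV1 ranked 4 by fold change and 25 by mean among the 2958 listed genes, but 118 by adjusted p. A gene with a smaller change and a smaller spread can thus rank above it, as AT3G16350 did.

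**Figure D3:**
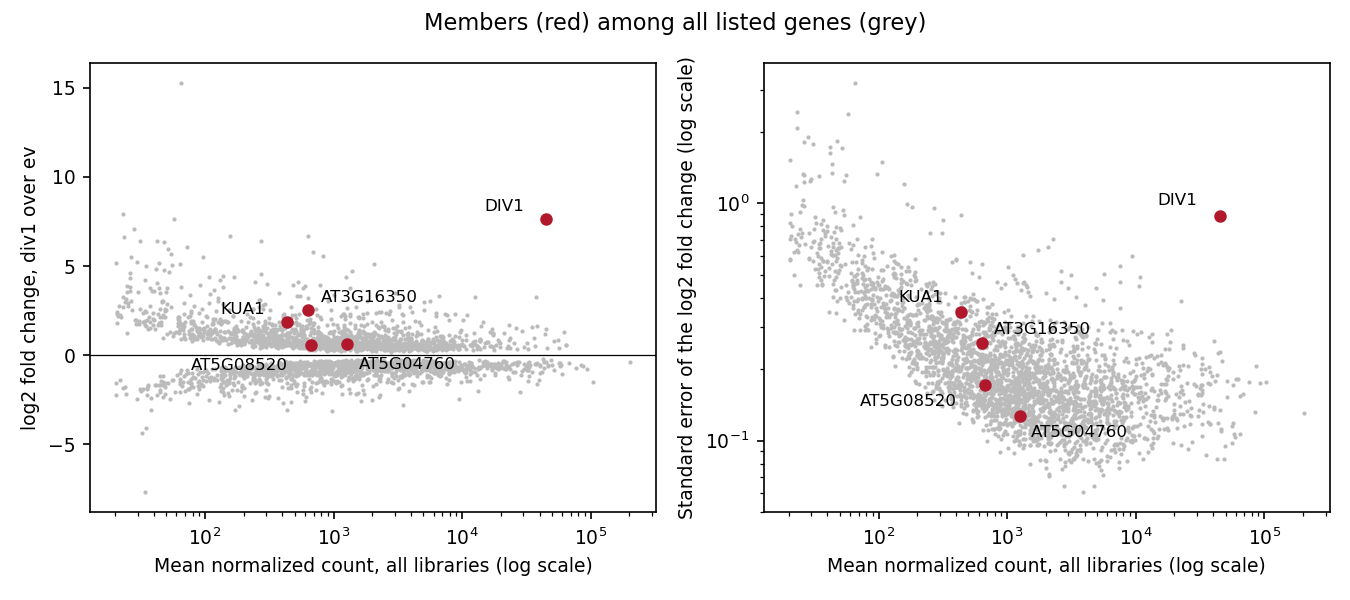
All 2958 listed genes (grey) with the 5 listed members (red), plotted by mean normalized count against the log2 fold change (left) and against its standard error (right, log scale). DIV1 stands apart in both panels, while the other 4 members lie within the cloud of genes of like mean.

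The largest increase after DIV1 was that of AT3G16350, a MYB-like factor of the zinc knuckle branch. AT3G16350 (chromosome 3, 5547492 to 5549862, plus strand; 3 exons, 387 residues) had a mean normalized count of 635 and a log2 fold change of 2.54 ± 0.26 (standard error; adjusted p = 2.57e-20) in the authors' deposited table. The estimated group means were 187 in ev and 1083 in div1, a fold of 5.80 (95% interval 4.08 to 8.23). AT3G16350 ranked 69 by adjusted p and 126 by fold change among all listed genes. Of 553 listed genes with a mean within 1.5 times its own, 18 had a larger change in size.

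KUA1 rose with its closest relative. KUA1 (AT5G47390, chromosome 5, 19226769 to 19228895, plus strand; 3 exons, 365 residues) had a mean normalized count of 435 and a log2 fold change of 1.86 ± 0.35 (standard error; adjusted p = 2.5e-06) according to the authors' deposited table. Its estimated means of 187 in ev and 682 in div1 give a fold of 3.64 (95% interval 2.27 to 5.83). Of 471 listed genes of like mean, 41 had a larger change and 38 a larger standard error. The spread between libraries that its standard error implies is 33.5% of the mean, against 24.7% for AT3G16350. The 95% intervals of the log2 fold changes of KUA1 (1.18 to 2.54) and AT3G16350 (2.03 to 3.04) overlap; the difference between them was not tested. Neither gene overlaps another annotated gene.

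The other 2 listed members rose by less than 2-fold, and both lie across genes on the opposite strand. AT5G04760 (chromosome 5, 1373530 to 1374787, minus strand; 2 exons, 215 residues, the shortest protein of the 10) had a mean of 1262 normalized counts and a log2 fold change of 0.64 ± 0.13 (standard error; adjusted p = 1.25e-05) in the authors' deposited table. That is an estimated 986 in ev and 1538 in div1, a fold of 1.56 (95% interval 1.31 to 1.85). Its implied spread between libraries, 12.1%, was the smallest of the 5. AT5G08520 (chromosome 5, 2755144 to 2758540, minus strand; 2 exons, 298 residues) had, in the authors' deposited table, a mean of 673 and a log2 fold change of 0.56 ± 0.17 (standard error; adjusted p = 0.00936). Its estimated means were 544 in ev and 803 in div1, a fold of 1.48 (95% interval 1.17 to 1.86). The intervals of both genes end below a log2 fold change of 0.90, under those of KUA1 and AT3G16350, which begin at 1.18 and 2.03. Among listed genes of like mean these were common sizes of change: 314 of 625 changed more than AT5G04760, and 387 of 570 more than AT5G08520. Listed genes are called genes only, so the sizes of change among all tested genes of like mean are unknown.

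The library kit is not one that marks strand, so reads of overlapping genes on opposite strands cannot be told apart. AT5G08520 shares 606 of its 2022 exonic bases with AT5G08510, a pentatricopeptide repeat gene. AT5G08510 was listed in the opposite direction, at -0.52 (SE 0.18, adjusted p = 0.0281) in log2 fold change in the authors' deposited table, with a mean of 397. AT5G04760 shares 430 of its 1128 exonic bases with the long noncoding RNA gene AT5G00990 and 90 with AT5G04750, an ATPase inhibitor gene, and neither was listed. How far the neighbours enter these counts was not tested. The remaining 8 members overlap no annotated gene.

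Other transcripts were searched for sequence shared with DIV1, since the introduced transcript was so abundant. No annotated transcript of another gene shared a run of 30 or more identical bases with the annotated DIV1 transcript. A run of at least 20 bases was found in 7 genes, none of them listed. The longest, 29 bases, was in AT5G05790, followed by 23 in AT3G11280, while AT2G38090 shared 21 and AT1G49010 shared 20. AT3G16350, KUA1, AT5G04760 and AT5G08520 shared no run of 20 bases with DIV1. The plasmid sequence was not used here. Only exact runs were searched, and the settings of the read mapping were not stated in the sources used. Whether reads of DIV1 entered the counts of its relatives was not tested.

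By the estimated means per length, DIV1 was not the most abundant of the listed members in the ev libraries. The estimated ev means per kilobase of transcript were 874 for AT5G04760, 269 for AT5G08520, 245 for DIV1, 112 for KUA1 and 95.1 for AT3G16350. Given the interval of the DIV1 estimate, its place relative to AT5G08520, KUA1 and AT3G16350 is not settled, and KUA1 and AT3G16350 lie close together. AT5G04760 has the highest estimate, but the error of that estimate was not taken into account. AT5G04760 also shares exonic bases with genes on the opposite strand, whose part in its count was not tested. In div1 the levels per kilobase were 47799 for DIV1, 1364 for AT5G04760, 551 for AT3G16350, 406 for KUA1 and 397 for AT5G08520. The estimated levels of AT3G16350 and KUA1, below that of AT5G08520 in ev, thus came to or above it. The DIV1 value uses the annotated transcript of 1885 bases, of which 867 are coding. The length of the introduced transcript is unknown, so the DIV1 level per kilobase in div1 is uncertain. In bulk RNA, more cells taking up plasmid and more transcript per cell cannot be told apart.

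**Figure D4:**
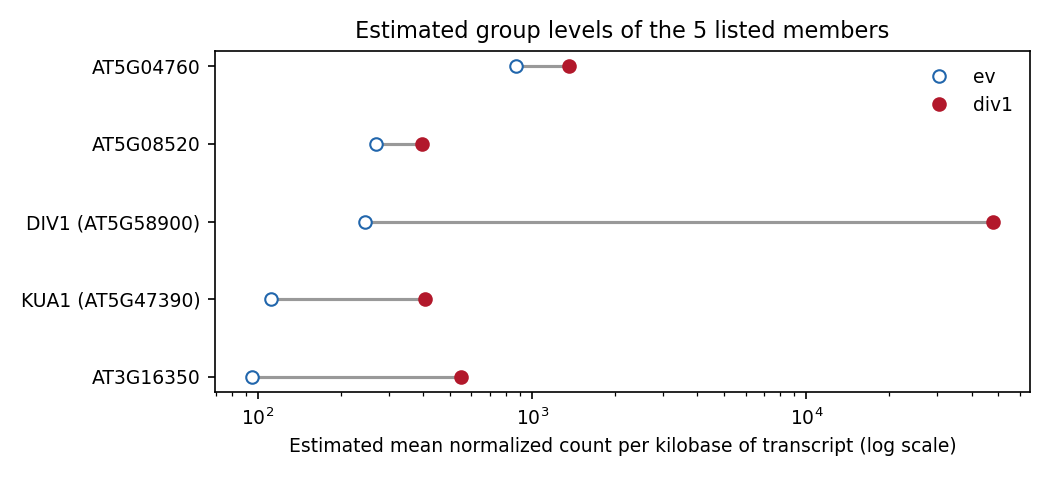
Estimated mean normalized count per kilobase of transcript (log axis) of the 5 listed members in the ev libraries (open blue circles) and the div1 libraries (filled red circles). DIV1 moves from 245 to 47799 per kilobase of its annotated transcript, the length of the introduced one being unknown. AT3G16350 and KUA1 move from the lowest ev estimates to levels near AT5G08520. Error bars are not drawn because the table gives no values per library.

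To see how far the changes reached beyond the members, all proteins of the annotation were searched for the letters SHAQKY, which 24 genes hold. Of these 6 were higher, 1 was lower and 17 were not listed, beside 9.14% of tested genes higher and 7.28% lower. Outside the members, 14 genes held the motif, and AT5G56840 and RVE8 were the 2 listed. AT5G56840, a further MYB-like gene with the zinc knuckle, had a log2 fold change of 1.49 ± 0.34 (standard error; adjusted p = 1.91e-04) at a mean of 94.5 in the authors' deposited table. RVE8, a clock factor that activates evening genes, stood at -0.63 (SE 0.16, adjusted p = 8.81e-04) in the same comparison of the authors' deposited table. The zinc knuckle spacing occurs in 5 of the 24 proteins. Among those 5 genes KUA1, AT3G16350 and AT5G56840 were higher and AT1G70000 and AT5G61620 were not listed, whereas of the 18 others without DIV1, 2 were higher and 1 lower. This grouping was noticed after the values were seen and was not tested.

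Further lists of relatives and partners, chosen apart from the motif search, were called in part. The CCA1 and RVE group among them shares RVE8, RVE4, AT1G01520, AT4G01280 and AT5G52660 with that search. None of the 6 RADIALIS-like genes, small proteins with a single repeat, was listed; the table holds calls only, so their unadjusted p-values in the authors' DESeq2 test are unknown. In the CCA1 and RVE group of clock factors, 2 of 10 were higher and 2 lower, namely RVE2 at 2.34 (SE 0.29) and RVE1 at 1.19 (SE 0.26), and LHY at -0.82 (SE 0.17) and RVE8 as above, in log2 units of the authors' deposited table. Of 8 genes chosen as reported outputs or partners of the family (ABI3, ABI5, AMY1, AMY2, AMY3, MYBL2, HY5 and YUC8), 1 was listed. This was AMY1, an alpha-amylase, at -0.80 (SE 0.29, adjusted p = 0.0391) in the authors' deposited table. Of 8 class III peroxidases, wall enzymes of the kind that KUA1 represses, PRX71 was higher at 1.13 (SE 0.28) and PRX52 lower at -0.62 (SE 0.19) on the log2 scale of the authors' deposited table, with 6 not listed. The shares listed were 0 of 6 RADIALIS-like genes, 4 of 10 clock factors, 1 of 8 outputs or partners and 2 of 8 peroxidases. All are to be read beside the 16.4% of all tested genes. None of 4 mesophyll markers and none of 7 markers of guard cells, epidermis and veins was listed, so their levels could not be read and the cell type was not checked by them.

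The promoters of the members were searched for the letters that factors of this class are known to bind, on both strands, in the 300 bases from 250 before to 50 after the annotated start. The letters were the I-box core GATAAG, the hexamer GGATAA that overlaps it by 5 letters, and the box TATCCA, whose complement shares 5 letters with that hexamer. The G-box, CACGTG, and the core of the evening element, AATATCT, were searched too. GGATAA occurs in 14.8% of 27443 protein-coding promoters, in 24.0% of those of genes listed as higher and in 9.42% of those listed as lower. GATAAG occurs in 14.6% of all, 22.6% of higher and 10.1% of lower promoters, and TATCCA in 16.1%, 21.8% and 11.8%. Listed genes come only from the 18010 tested genes, whereas the 27443 promoters also include genes that were not tested. The shares among tested genes could not be read, and the differences were not tested. Of the 5 listed members, AT3G16350 alone held GGATAA, and none held GATAAG or TATCCA. Of the 5 members not listed, AT1G49010 held GATAAG and GGATAA, AT2G38090 GGATAA, and AT3G11280 and AT1G70000 TATCCA. The evening element core was found in the DIV1 promoter, at 89 bases before the start in the annotation, and in no other member, and the G-box in none; these letters occur in 11.5% and 7.68% of all promoters.

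A pair of these promoters is printed as an example, the listed member with 2 matches and the unlisted one with the most. They were picked by their matches and do not stand for the listed and unlisted members. They are RefSeq TAIR10.1 sequence on the strand of the gene, AT3G16350 at chr3:5547242-5547541 and AT1G49010 at chr1:18132295-18132594, with capitals marking GATAAG and also GGATAA, on either strand.
AT3G16350: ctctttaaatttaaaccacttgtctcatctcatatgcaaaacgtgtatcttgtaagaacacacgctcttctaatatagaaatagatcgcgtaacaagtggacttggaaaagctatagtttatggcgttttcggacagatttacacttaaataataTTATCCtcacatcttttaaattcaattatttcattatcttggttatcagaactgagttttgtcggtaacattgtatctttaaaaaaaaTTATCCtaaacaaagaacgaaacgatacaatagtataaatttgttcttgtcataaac
AT1G49010: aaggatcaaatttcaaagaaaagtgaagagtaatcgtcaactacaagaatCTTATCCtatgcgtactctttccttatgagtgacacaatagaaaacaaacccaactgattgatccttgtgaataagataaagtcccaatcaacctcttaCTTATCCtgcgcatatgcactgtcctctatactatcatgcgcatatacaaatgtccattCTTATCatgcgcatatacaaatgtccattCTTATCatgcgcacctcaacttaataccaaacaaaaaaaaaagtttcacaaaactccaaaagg
In AT3G16350 the complement of GGATAA begins 95 and 7 bases before the start. In AT1G49010 the complement of GATAAG begins 200, 101, 42 and 13 bases before it, and the first 2 of these run into GGATAA. AT1G49010 was not among the calls. A match is a description of letters and not a binding site.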

How the data were processed

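Poly(A) RNA of 8 protoplast libraries, 4 div1 and 4 ev by title, had been sequenced. The submitters' processing notes name build TAIR10, DESeq2, HISAT2, featureCounts 2.0.1 and fastp 0.21.0; settings were not stated in the sources used here. The authors deposited 1 table of called genes. Per the file headers its columns are a mean normalized count (a signal averaged over all libraries), a log2 fold change, its standard error, a score (the statistic, which equals the log2 ratio over its error), a p-value and its adjusted form. No values per library were used, so no test of samples was run and the authors' calls across all genes were read as deposited. Depth per library is unknown.

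Computed here were the number of tested genes (largest adjusted p times rank over p), 95% intervals from the standard errors, group means from the overall mean and fold, levels per kilobase of the longest transcript, and the spread implied by each standard error. The implied spread was taken as equal, relative to the mean, in both groups. Models and sequences came from RefSeq TAIR10.1, whose identifiers matched 2957 of 2958 genes; proteins were translated from it and aligned globally (BLOSUM62, gap scores -11 and -1, free end gaps). The recovery of the number of tested genes and of the implied spread was tried on simulated data. Tools were Biopython 1.88, scipy 1.17.1, pandas 2.3.3, matplotlib 3.10.9, numpy 2.4.6 and Python 3.11.15. Members, lists, motifs and alternatives were chosen with earlier results of these data known. Named were all members, up to 4 listed genes of each list, listed motif genes and genes overlapping a member.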

Additional observations from a re-analysis of the deposited data

How the results depend on the processing

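Of the 5 listed members, all 5 kept their call at an adjusted p under 0.01 and at a mean of at least 50 normalized counts, and 4 kept it with a Bonferroni adjustment over the tested genes, which AT5G08520 did not pass. Among changes of at least 2-fold, and equally without genes that overlap another gene, 3 of the 5 remained, AT5G04760 and AT5G08520 being the ones left out each time. Of the 7 listed motif genes, 4 were left at 2-fold and 4 under Bonferroni, while 5 were left without overlapping genes. Over all tested genes 3.47% were called at least 2-fold higher, and 27% of all listed genes overlap another gene. The shares of all tested genes called at the other settings were not computed, so these counts only describe how single calls held. The percentage of tested genes called was the same from the last rank. The order of the members by ev level held per coding kilobase and per kilobase of merged exons; by the mean over all libraries, which the introduced DIV1 enters, 0 of 5 members kept their place. No paired analysis was possible because the table holds no values per library, and for the same reason leaving out replicates, another normalization and a filter on low counts were not run. Unlisted members, changes of single libraries and the errors of the group means are beyond what this table resolves.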
